A study of Mus musculus with 444 samples.

Results

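The RNA of 8 surface antigens by which mammary epithelial cells are commonly sorted was followed: Epcam, Cd24a, Itga6, Itgb1, Itgb3, Itga2, Cd14 and Ly6a. The 8 genes were found by their Entrez gene identifiers among the 27179 identifiers of the count tables, and all 8 were present. The question was how well the RNA of each antigen follows the lineage of the cell that carries it. The cells were taken from FVB/NJ mice, which are inbred, during puberty (designated 5 weeks of age, when the ducts grow) and in adulthood (10 weeks), and the labels name no allele or agent for either group. The study counts slightly younger mice among those of 5 weeks, and the deposited names of the pubertal data give a lower age. They were sorted as total epithelium, and several mice were pooled for each sort. The study excludes cells with red cell, endothelial and leucocyte antigens. It names CD24, the product of Cd24a, as the positive gate for total epithelium in its droplet experiments, and a gate for the cells used here is not given separately. Each cell was captured on the Fluidigm C1, a microfluidic device with 1 cell per chamber, and its polyadenylated RNA was sequenced on its own.

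The labels listed 221 pubertal and 223 adult cells. Read pairs on genes ranged from 2 to 1456360 per pubertal cell and from 1 to 1167991 per adult cell. The 171 pubertal and 152 adult cells with at least 100000 read pairs and at least 1500 detected genes were retained, and each was thinned to 100000 read pairs, so that 1 read pair equals 10 CPM (read pairs of a gene per 1000000 of the cell). No animal, sort or capture run is named for any cell. Each stage therefore stood as 1 sample, no test was made, and the intervals given are 95% intervals that cover counting error only. Adult cells 48 to 188, by the numbers in their titles, were known to stand apart from the other adult cells. The filter kept 107 of 141 of them and 45 of the other 82. Krt14, a basal keratin, had reads in 82.1% of their luminal cells, against 57.1% in the other adult cells and 26.5% in puberty. Many adult AUCs and all stage ratios of the antigens are therefore also given for both sets, whereas correlations between genes are given for all adult cells.

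The mammary duct is built of an outer basal layer, whose cells contract and rest on the basement membrane, and an inner luminal layer, in which progenitor cells and mature hormone-sensing cells are told apart. Integrins are pairs of an α and a β chain that bind the matrix. Itgb1 (CD29) pairs with Itga6 (CD49f) in a laminin receptor and with Itga2 (CD49b) in a collagen receptor, Itga6 also pairs with Itgb4, and Itgb3 (CD61) pairs with Itgav. Epcam encodes an epithelial adhesion molecule, Cd24a a small glycoprotein held by a lipid anchor, Cd14 a co-receptor for bacterial lipopolysaccharide, and Ly6a the lipid-anchored antigen Sca-1. In sorting, basal cells are taken as high for CD29 or CD49f, luminal cells as high for EpCAM or CD24, and luminal cells are divided with CD61, CD49b, CD14 and Sca-1.

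The 250 bases before the start of transcription were available from RefSeq (GRCm38.p6) for 3 of the 8 genes. All 3 are shown, so that a gene higher in luminal cells (Epcam), one leaning to basal cells (Itgb1) and one rare in both layers (Itga2) can be read beside the values given below. Capitals mark the letters CACCTG (an E-box) and GGGCGG (a GC box) on either strand, that is also CAGGTG and CCGCCC, and no matches overlapped.
Epcam, chr17:87635729-87635978, plus strand: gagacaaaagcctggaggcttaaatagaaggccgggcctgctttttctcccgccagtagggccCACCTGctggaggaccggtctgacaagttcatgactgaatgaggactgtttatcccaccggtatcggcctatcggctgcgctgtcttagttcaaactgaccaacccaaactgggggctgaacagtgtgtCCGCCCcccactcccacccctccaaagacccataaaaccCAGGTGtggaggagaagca
Itgb1, chr8:128685404-128685653, plus strand: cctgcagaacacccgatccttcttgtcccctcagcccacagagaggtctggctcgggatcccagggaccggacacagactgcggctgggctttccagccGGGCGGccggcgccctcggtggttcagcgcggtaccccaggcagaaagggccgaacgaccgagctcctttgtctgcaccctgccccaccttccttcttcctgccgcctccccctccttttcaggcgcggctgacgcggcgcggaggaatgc
Itga2, chr13:114932101-114932350, minus strand: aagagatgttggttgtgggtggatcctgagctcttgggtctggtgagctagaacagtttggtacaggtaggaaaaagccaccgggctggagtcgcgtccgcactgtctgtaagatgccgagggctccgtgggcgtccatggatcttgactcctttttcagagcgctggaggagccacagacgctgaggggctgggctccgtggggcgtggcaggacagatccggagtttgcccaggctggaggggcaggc
The Epcam sequence held 2 E-boxes, beginning 187 and 19 bases before the start, and 1 GC box. Of 32851 promoter sequences of this length, 17.2% held at least 1 such E-box and 2.06% held at least 2. Itgb1 held 1 GC box and no E-box of this form, Itga2 held neither, and 32.7% of promoter sequences held a GC box. The share of G and C was 56.4% for Epcam, 68.0% for Itgb1 and 60.8% for Itga2, against a median of 52.4%. A match of letters does not show that a site is used.

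The genes lie on 8 different chromosomes of mm10. Epcam (gene 17075) spans 87635979 to 87651127 on chromosome 17, Cd24a (12484) spans 43579169 to 43584265 on chromosome 10, Itga6 (16403) spans 71786886 to 71858427 on chromosome 2, and Itgb1 (16412) spans 128685654 to 128733579 on chromosome 8. Itgb3 (16416) spans 104608000 to 104670476 on chromosome 11, Itga2 (16398) spans 114833081 to 114932100 on chromosome 13, Cd14 (12475) spans 36725064 to 36726815 on chromosome 18, and Ly6a (110454) spans 74994877 to 74998031 on chromosome 15. Itga2 overlaps the gene model Gm34845, and Ly6a overlaps Gm28068. Ly6a also has close relatives beside it on chromosome 15, among them Ly6a2, Ly6c1 and Ly6e, so its counts could be split among them. The use of strand in counting is not given in the sources used here.

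Over all retained cells, levels per kilobase (RPKM from summed thinned counts) spanned a wide range. In puberty the order was Ly6a (1328), Cd24a (503), Epcam (413), Itgb1 (93.7), Itga6 (84.3), Cd14 (60.5), Itga2 (6.07) and Itgb3 (5.16). In the adult it was Ly6a (1212), Epcam (628), Cd24a (417), Itgb1 (153), Cd14 (148), Itga6 (94.7), Itgb3 (6.63) and Itga2 (4.74). The counting intervals of neighbours overlapped only for Itga2 with Itgb3 in puberty (5.52 to 6.67 and 4.72 to 5.63) and for Itgb1 with Cd14 in the adult (150.1 to 156 and 143 to 154). The spread between cells was far wider than these intervals. In adult cells 48 to 188 Epcam (638 RPKM) stood above Ly6a (603 RPKM), and a single cell held 22.1% of the adult Ly6a reads. A single cell also held 62.4% of the adult Itgb3 reads, so the adult order of Itgb3 and Itga2 rested on it.

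How many cells carried an antigen followed another order. Epcam RNA was found in 163 of 171 pubertal cells (95.3%, exact interval 91.0 to 98.0%) and 146 of 152 adult cells (96.1%, 91.6 to 98.5%). Itgb1 was found in 87.7 and 88.8% of cells, Cd24a in 83.0 and 91.4%, and Itga6 in 76.6 and 91.4%. Ly6a, the highest by level, was found in 63.7% of pubertal cells and 44.1% of adult cells. Cd14 was found in 15.8 and 28.9%, Itgb3 in 15.2 and 13.2%, and Itga2 in 13 of 171 and 21 of 152 cells. Cells of the adult set 48 to 188 carried most antigens more often than the other adult cells at the same depth. Epcam was found in 107 of 107 against 39 of 45 cells, Itgb1 in 105 against 30, and Cd14 in 39 against 5. Ly6a went the other way by share, with 39.3% of cells 48 to 188 and 55.6% of the others.

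Lineage was assigned from marker genes that include none of the 8 antigens. A cell was placed with the basal, luminal progenitor or mature luminal markers if its score for that list (mean log2 of CPM plus 10, standardised) led the next by at least 0.5. Such classes are ranges of a score, and 28 of the 238 classed cells and 30 of the 65 cells of no class lay within 0.25 of the limit. There were 27 basal, 25 luminal progenitor and 77 mature luminal cells in puberty, and 49, 33 and 27 in the adult. Of the adult luminal progenitor cells, 28 of 33 were in the set 48 to 188. A further 10 cells of each stage were set apart. In these, at least 3 of 6 fibroblast genes, such as Col1a1 and Pdgfra, had 10 or more thinned read pairs. The top 10 genes of each class held some of the markers that had assigned it, which the assignment itself favours. These were Oxtr, Tagln and Actg2 in the basal class and Ltf, Trf, Wfdc18 and Csn3 in the luminal progenitor class. In the mature luminal class they were Foxa1, Cxcl15 and Cited1. Markers found in a share of at least 0.5 of the cells of their class were 12 of 12 for basal, 5 of 10 for luminal progenitor and 9 of 11 for mature luminal. The 5 immune markers had no read in basal or mature luminal cells of either stage, and reached a sum of 20 CPM in pubertal progenitors. Endothelial markers reached a sum of 1050 CPM in a pubertal progenitor and 580 CPM in a pubertal basal cell. Schwann cell markers reached 20960 CPM in a pubertal mature luminal cell and 2560 CPM in a pubertal basal cell, with medians of 0 CPM in both classes. Red cell markers reached 180 CPM in adult mature luminal cells. Such cells were kept in their classes.

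**Figure D1:**
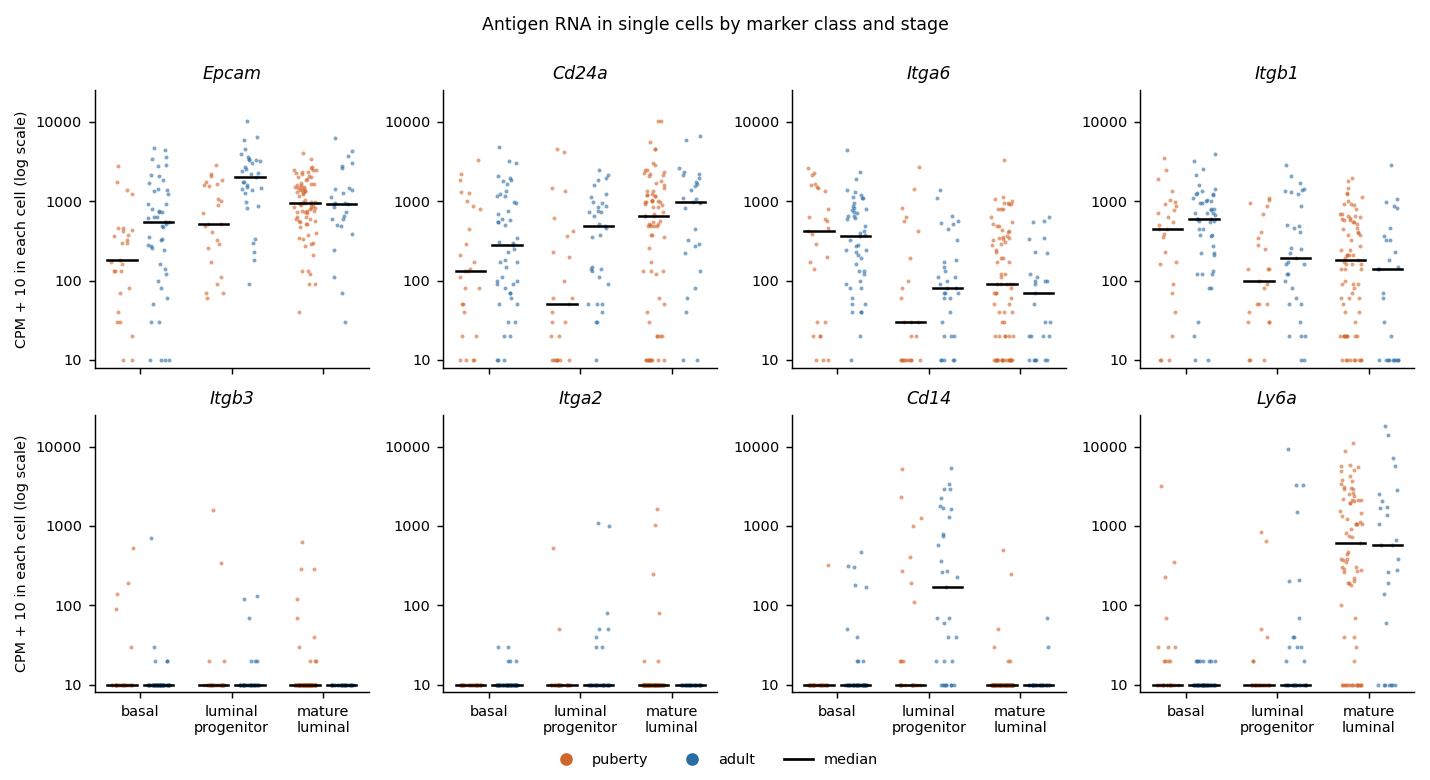
RNA of the 8 antigens in each classed cell, as CPM plus 10 on a log axis, so that cells without a read sit at 10. Points are cells spread sideways, orange for puberty and blue for the adult, and black bars are medians. The medians of Ly6a are 590 CPM in pubertal and 560 CPM in adult mature luminal cells and 0 CPM in the other classes, whereas points for Itga6 and Itgb1 overlap widely between the classes.

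Basal and luminal cells were compared through the AUC, the share of all pairs of 1 basal and 1 luminal cell in which the basal cell is higher, where 0.5 means no difference. An AUC of at least 0.70 or at most 0.30 in both stages was called. Among 7806 genes at 20 CPM or more, 1.54% were called in either direction and 0.295% towards the luminal side. Of the 8 antigens 2 were called, Epcam and Ly6a, both higher in luminal cells. With another random thinning (seed 2) Epcam lost its call, and neither was called when classes came from k-means or from a lead of 0. None was called towards the basal side, where the background was 1.24%. By the looser measure of a 2-fold difference of mean levels in both stages, which 22.5% of genes reached (8.58% towards basal and 13.9% towards luminal cells), Itga6 was higher in basal cells and Epcam, Itga2, Cd14 and Ly6a were higher in luminal cells. For Itga2 the adult difference rested on 2 luminal cells at 1090 and 1000 CPM, both in the set 48 to 188. Its AUC was 0.461 in puberty and 0.478 in the adult, close to 0.5. Among the other adult cells no luminal cell had an Itga2 read.

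Epcam was present in every luminal cell at both stages and in most basal cells. In puberty it ranged from 0 to 2790 CPM in basal cells, with a median of 170, and from 30 to 4070 in luminal cells, with a median of 885. In the adult the ranges were 0 to 4740 (median 530) and 20 to 10250 (median 1425). The classes overlapped over most of their range, and the AUC was 0.208 in puberty and 0.288 in the adult. It was 0.357 in adult cells 48 to 188, which is outside the limit for a call, and 0.121 in the other adult cells. In cells 48 to 188 luminal progenitors stood above mature luminal cells (AUC 0.890). The highest of the 11 mature cells there had 910 CPM, whereas basal cells reached 4350 CPM, so the luminal excess did not extend to mature cells. Of the basal cells, 92.6% in puberty and 91.8% in the adult carried Epcam RNA. In the adult this came from 38 of 38 basal cells in the set 48 to 188 and 7 of 11 (63.6%) among the other adult cells.

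Cd24a was not called in either stage. Its AUC was 0.421 in puberty and 0.417 in the adult, with 0.439 in cells 48 to 188 and 0.325 in the other adult cells, where means were 254 CPM in basal and 802 CPM in luminal cells. It was found in 85.2% of pubertal basal and 83.3% of pubertal luminal cells, and in 93.9 and 95.0% in the adult. Mean levels were 529 CPM in basal and 1040 CPM in luminal cells of puberty, and 699 and 975 CPM in the adult. The difference in means came with medians of 120 and 485 CPM in puberty and of 270 and 685 CPM in the adult, each within the range of the other class.

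The pair of laminin receptor chains leaned to the basal side. Itga6 had a mean of 709 CPM in pubertal basal cells (678 to 741) and 280 CPM in luminal cells (270 to 291), and of 587 CPM (566 to 609) and 174 CPM (163 to 185) in the adult. Its AUC was 0.672 in puberty and 0.761 in the adult, with 0.769 in cells 48 to 188 and 0.719 in the others, and in no alternative setting did the pubertal value reach 0.70. For Itgb1 the means were 679 and 330 CPM in puberty and 796 and 445 CPM in the adult, and the AUC was 0.638 and 0.693, with 0.657 in cells 48 to 188 and 0.742 in the other adult cells. Both were common in luminal cells too: Itga6 was found in 73.5% of pubertal and 81.7% of adult luminal cells, and Itgb1 in 88.2 and 81.7%. Of cells with Itga6, 90.1% in puberty and 90.6% in the adult also had Itgb1, against 80.0 and 69.2% of cells without Itga6. Few adult cells were without Itga6, since 139 of 152 had it. The Itgb1 shares with and without Itga6 were 98.0 and 100% in cells 48 to 188 and 70.3 and 50.0% in the other adult cells. Itgb4, the other partner, was found in 25.2 and 16.5% of cells with Itga6 and in 22.5 and 7.69% of cells without it. With and without Itga6 it was in 19.6 and 20.0% of cells 48 to 188 and in 8.11 and 0% of the other adult cells.

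Itgb3 and Itga2 were sparse in both layers. Itgb3 was found in 5 of 27 pubertal and 5 of 49 adult basal cells, and its AUC was 0.527 and 0.501, with 0.462 in cells 48 to 188 and 0.610 in the others. The single cell with most of the adult Itgb3 reads was of no class, and the adult mean was 38.4 CPM with it and 14.5 CPM without it. Itga2 had no read in the 27 pubertal basal cells after thinning, which allows a share of up to 11.1% if 3 cells are taken as the limit of a count of 0 (the exact interval reaches 12.8%), although 11.1% of them had a read before thinning. It was found in 8 of 102 pubertal and 8 of 60 adult luminal cells, and every cell with Itga2 also had Itgb1.

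**Figure D2:**
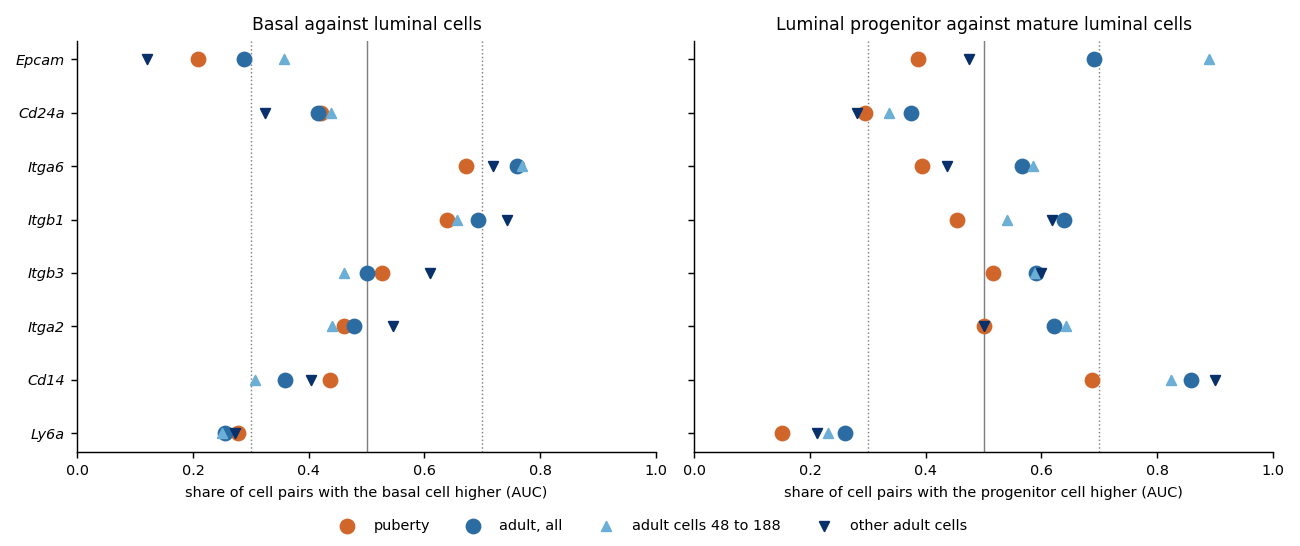
AUC of each antigen for basal against luminal cells (left) and luminal progenitor against mature luminal cells (right). Circles are puberty (orange) and all adult cells (blue), triangles are adult cells 48 to 188 (pointing up) and the other adult cells (pointing down), the solid line is 0.5 and dotted lines are 0.30 and 0.70. On the right Ly6a lies below 0.30 in all 4 groups of cells, whereas Epcam runs from 0.387 to 0.890.

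Within the luminal layer, Ly6a and Cd14 moved in opposite directions. Of the 8 antigens 1 was called by AUC, Ly6a, towards the mature luminal side, against a background of 0.705% in that direction and 1.09% in either. With classes from k-means it was not called. A 2-fold difference of means in both stages was reached by Cd14 and Itgb3 towards luminal progenitors and by Cd24a and Ly6a towards mature luminal cells. Of the genes at 20 CPM or more 22.9% reached it (8.78% and 14.1% in these directions). For Itgb3 the pubertal direction rested on 1 progenitor cell at 1570 CPM, the next being at 330 CPM. No adult progenitor exceeded 120 CPM of Itgb3.

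Ly6a was found in 62 of 77 mature luminal cells of puberty (80.5%, 69.9 to 88.7%) and in 6 of 25 luminal progenitor cells (24.0%, 9.36 to 45.1%). In the adult it was found in 20 of 27 (74.1%, 53.7 to 88.9%) and in 14 of 33 (42.4%, 25.5 to 60.8%). Its levels ran from 0 to 11240 CPM (median 590) in pubertal and from 0 to 17950 CPM (median 560) in adult mature luminal cells, while both medians were 0 in luminal progenitors. A few progenitors were high, and 1 adult progenitor cell at 9260 CPM held 51.8% of their Ly6a reads. The AUC was 0.151 in puberty and 0.261 in the adult, with 0.231 in cells 48 to 188 and 0.212 in the other adult cells. Basal cells were nearly devoid of it in the adult, with 8 reads over 49 cells and a highest cell of 10 CPM, and in puberty a single basal cell at 3130 CPM held 81.3% of the basal reads. Basal cells and luminal progenitors thus shared a median of 0 CPM. Their shares differed: 11 of 27 pubertal and 8 of 49 adult basal cells carried Ly6a, against 6 of 25 and 14 of 33 progenitors. Basal cells thus carried it more often than progenitors in puberty and less often in the adult, a difference that was not tested. In puberty the higher Ly6a of luminal over basal cells therefore lay in the mature cells.

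Ly6a was also high in the fibroblast-marker cells. The 10 fibroblast-marker cells of puberty had a median of 4610 CPM and a mean of 4114 CPM, above the mean of 1502 CPM of mature luminal cells, and 9 of the 10 carried it. In the adult 9 of 10 carried it, at a median of 1015 CPM, which was 165 CPM in the 6 cells of the set 48 to 188 and 4945 CPM in the 4 others. The 6 also carried more RNA of the basal markers (mean summed level 39535 CPM) than of the fibroblast genes (6047 CPM), and the part of either in the Ly6a level was not tested. The summed level of the 6 fibroblast genes in mature luminal cells had a median of 0 CPM at both stages.

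Cd14 was found in 11 of 25 luminal progenitor cells of puberty (44.0%, 24.4 to 65.1%) and in 6 of 77 mature luminal cells (7.79%, 2.91 to 16.2%). In the adult the shares were 25 of 33 (75.8%, 57.7 to 88.9%) and 2 of 27 (7.41%, 0.910 to 24.3%). Mean levels were 430 against 10.5 CPM in puberty and 811 against 2.96 CPM in the adult. The highest progenitor cells reached 5210 and 5340 CPM, while the median progenitor was at 0 CPM in puberty and at 160 CPM in the adult. The AUC was 0.687 in puberty, just short of the limit, and 0.859 in the adult (0.823 in cells 48 to 188 and 0.900 in the others), and Cd14 was called with unthinned counts and with seed 2. Basal cells carried Cd14 in 1 of 27 cells of puberty and in 10 of 49 of the adult, all 10 of them in the set 48 to 188.

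**Figure D3:**
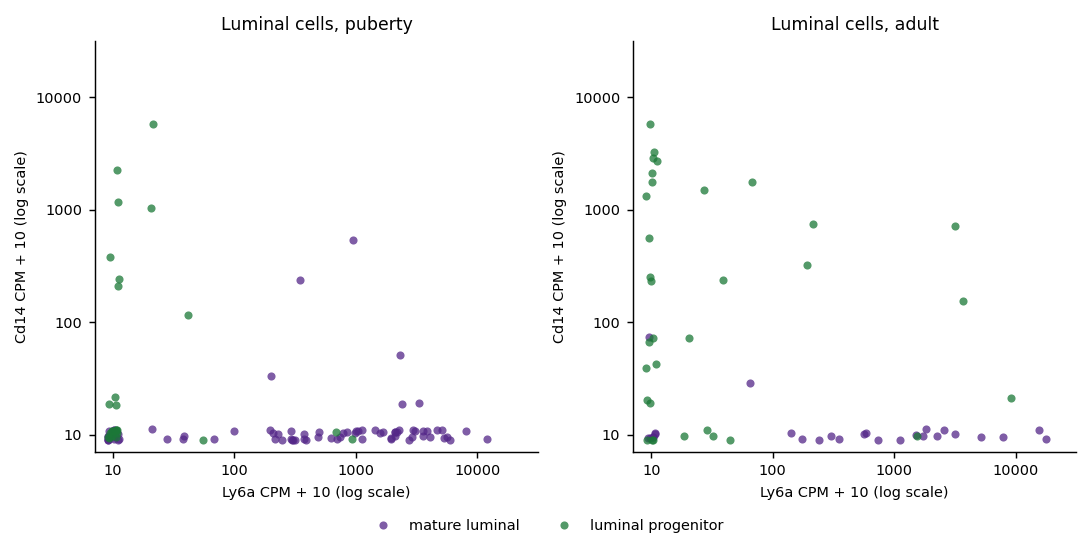
Cd14 against Ly6a RNA in luminal progenitor (green) and mature luminal (purple) cells, as CPM plus 10 on log axes with points spread slightly so that cells at 0 CPM can be seen. Most cells lie along 1 of the axes: 9 of 102 pubertal and 10 of 60 adult luminal cells had reads of both genes.

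The 2 antigens seldom met in a cell. In puberty 3 of 25 progenitors and 6 of 77 mature cells had both, and in the adult 9 of 33 and 1 of 27 did. Cells with Cd14 were not devoid of Ly6a. Of all luminal cells with Cd14, 52.9% in puberty and 37.0% in the adult had Ly6a, against 69.4 and 72.7% of those without. Within the classes of puberty the order was reversed. Ly6a was in 27.3% of progenitors with Cd14 and 21.4% without, and in all 6 mature cells with Cd14 and 78.9% without. In the adult, with and without Cd14, it was in 36.0 and 62.5% of progenitors and in 50.0 and 76.0% of mature cells. Along the log2 ratio of Cd14 to Ly6a, with 10 CPM added to each, the AUC was 0.902 in puberty and 0.874 in the adult. With the limit between the classes taken from the other stage, 22 of 25 progenitors (88.0%) and 58 of 77 mature luminal cells (75.3%) of puberty lay on their own side, and 30 of 33 (90.9%) and 19 of 27 (70.4%) of the adult. Ly6a paired with Itga2 or Itgb3 gave an AUC of 0.850 or 0.854 in puberty and of 0.777 or 0.770 in the adult, where Ly6a alone corresponds to 0.849 and 0.739. The integrins thus added at most 0.0382 to the value of Ly6a alone, and Cd14 added 0.0535 in puberty and 0.135 in the adult.

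Itgb3 and Itga2, both used to mark luminal progenitors, were rare within them. Itgb3 was found in 4 of 25 pubertal and 6 of 33 adult progenitors, with an AUC of 0.516 and 0.591, and in 10 of 77 and 0 of 27 mature luminal cells. Itga2 was found in 2 of 25 and 8 of 33 progenitors, and in 6 of 77 and 0 of 27 mature luminal cells. By the same limit the counts of 0 allow shares of up to 11.1% (12.8% by the exact interval), and before thinning 3.70% of these adult mature cells had Itgb3 reads and 7.41% had Itga2 reads. All 8 adult progenitors with Itga2 also had Cd14, and all were in the set 48 to 188.

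Within the luminal layer Epcam lay on different sides in the 2 stages, a difference that was not tested. Its mean was 893 CPM in pubertal progenitors and 1163 CPM in pubertal mature cells, and 2450 and 1414 CPM in the adult. The AUC was 0.387 and 0.690. The adult value rested on the set 48 to 188, where the means were 2539 CPM in 28 progenitors and 446 CPM in 11 mature cells (AUC 0.890), while the other adult cells gave 1950 CPM in 5 and 2080 CPM in 16 cells (AUC 0.475). Cd24a leaned to mature luminal cells, with 1200 against 544 CPM in puberty and 1357 against 662 CPM in the adult, and with an AUC of 0.296 and 0.374 (0.336 in cells 48 to 188 and 0.281 in the others). Itga6 (0.394 and 0.567) and Itgb1 (0.454 and 0.639) lay on different sides of 0.5 in the 2 stages, and Itga6 also in the adult sets (0.586 in cells 48 to 188 and 0.438 in the others).

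The pairs of antigens used to part the layers gave AUCs from 0.658 to 0.838 in RNA. Itga6 over Epcam gave an AUC of 0.768 in puberty and 0.838 in the adult. Itga6 over Cd24a gave 0.668 and 0.732. Itgb1 over Cd24a, whose products the study stains for in its basal and luminal gates, gave 0.658 and 0.723. Those gates each take cells positive for the product of Cd24a and differ in that of Itgb1. The ratio therefore does not reproduce them, and how well they part the layers was not tested. For Itgb1 over Cd24a, 19 of 27 basal and 56 of 102 luminal cells of puberty lay on their own side of the limit set in the adult (70.4 and 54.9%), and 26 of 49 and 44 of 60 adult cells did so with the limit of puberty (53.1 and 73.3%). For Itga6 over Epcam the shares were 70.4 and 62.7% in puberty and 69.4 and 83.3% in the adult. At least 70% of each class in each stage was reached by 0 of the 3 pairs for basal against luminal and by 3 of the 3 pairs with Ly6a. With the other adult cells in place of all adult cells, Itga6 over Epcam reached it and the pairs with Ly6a did not. The lowest of the Ly6a shares was 70.1%, and under 7 of the 14 alternative settings none of the 6 pairs reached the limit.

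**Figure D4:**
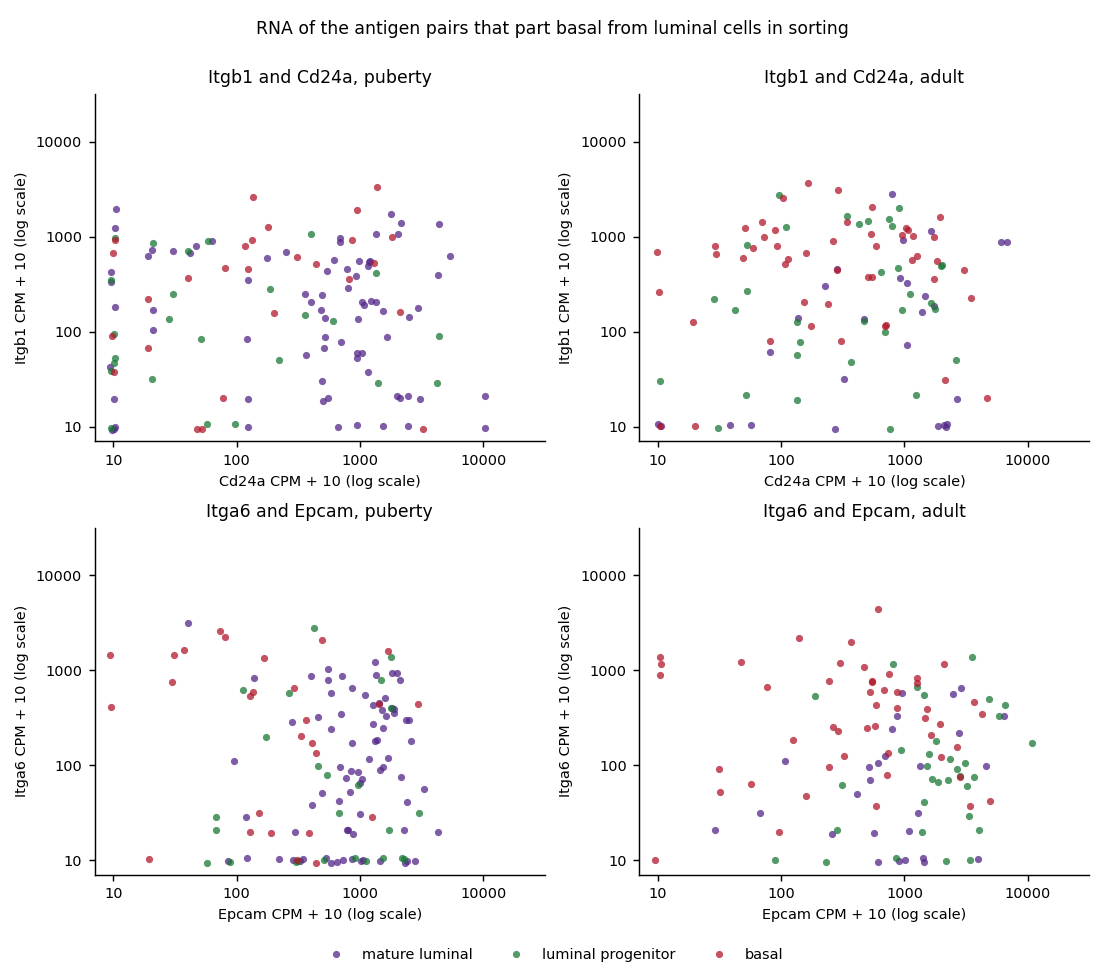
Itgb1 against Cd24a (top) and Itga6 against Epcam (bottom) in basal (red), luminal progenitor (green) and mature luminal (purple) cells of puberty (left) and the adult (right), as CPM plus 10 on log axes, with points spread slightly. Red points mix with the others in the upper panels and lie mainly to the left and top in the lower panels, with an AUC along the ratio of 0.658 and 0.723 above and of 0.768 and 0.838 below.

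Between the stages, 1 of the 8 antigens differed by 2-fold or more in its summed level. Of the 7806 genes at 20 CPM or more 34.1% did so, 19.9% higher in puberty and 14.3% higher in the adult. Cd14 stood at 90.5 CPM (86.1 to 95.2) in puberty and 222 CPM (215 to 230) in the adult, a log2 ratio of puberty over adult of -1.29 (-1.38 to -1.21). Against cells 48 to 188 it was -1.58, and against the other adult cells it was -0.17. The luminal progenitor class, which carries most Cd14, made up 14.6% of pubertal and 21.7% of adult cells, 26.2% of cells 48 to 188 and 11.1% of the others. Within that class the mean was 430 CPM in pubertal cells and 811 CPM in adult cells. The intervals of the 2 class shares overlapped (9.69 to 20.8% and 15.4 to 29.1%).

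Ly6a was alike in the sums (1099 and 1003 CPM) but stood at 500 CPM in cells 48 to 188 and at 2202 CPM in the other adult cells, so that its log2 ratio was 1.14 against the former and -1.001 against the latter. One cell of the latter set, of no class, held 34.1% of that set's Ly6a reads at 33740 CPM, and without the highest cells of both sides the ratio was -0.51. The mature luminal class, towards which Ly6a was called, made up 45.0% of pubertal cells, 10.3% of cells 48 to 188 and 35.6% of the others. Within that class both adult sets had a higher mean than puberty, resting on 1 cell in each (14090 and 17950 CPM). Fibroblast-marker cells, also high in Ly6a and included in the sums, made up 5.85% of pubertal cells, 5.61% of cells 48 to 188 and 8.89% of the others. The part of the shares of these classes in the ratios was not tested. Epcam (log2 ratio -0.60) and Itgb1 (-0.71) were lower in puberty against every set of adult cells, from -0.63 to -0.55 and from -0.85 to -0.30. For Itgb1 this held for the sums only: the median cell stood at 180 CPM in puberty and at 110 CPM in the other adult cells, and 87.7 and 66.7% of cells carried it. Against all adult cells Cd24a (0.27), Itga6 (-0.17), Itgb3 (-0.35) and Itga2 (0.34) differed by less. Against cells 48 to 188 and the other adult cells, Cd24a stood at 0.06 and 0.91, Itga6 at -0.14 and -0.23, Itgb3 at -0.61 and 0.55, and Itga2 at -0.14 and 4.204, the last against 2 reads. The median log2 ratio was -0.26 over the 8 antigens and 0.09 over all genes at 20 CPM or more, and they were -0.38 and -0.05 under TMM scaling and 0.06 and 0.23 without the highest cell of each gene, so the antigens' median changed sign without those cells.

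**Figure D5:**
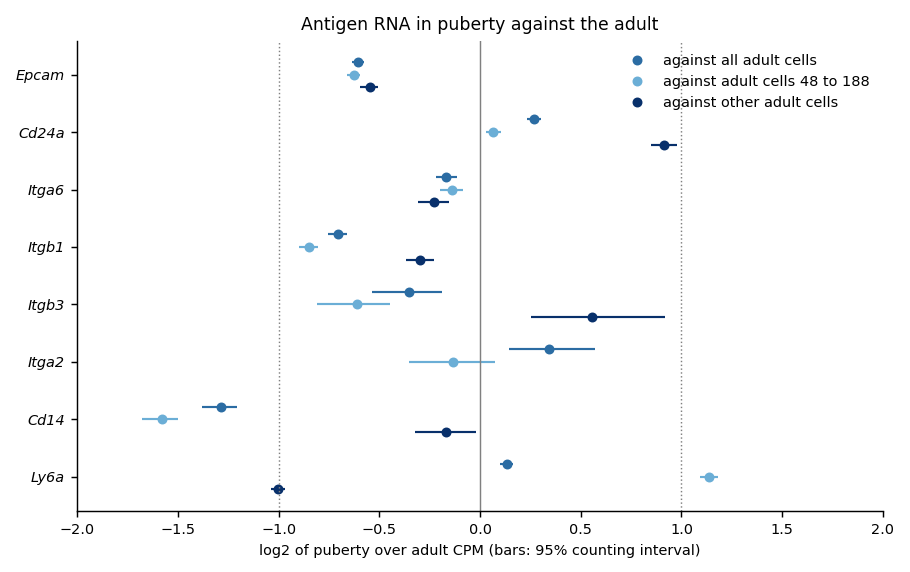
Log2 ratio of puberty over adult for each antigen, from summed CPM with 1 CPM added, against all adult cells (mid blue), cells 48 to 188 (light blue) and the other adult cells (dark blue). Bars are 95% counting intervals and dotted lines mark 2-fold. Itga2 against the other adult cells, which had 2 reads in all, is not drawn. Ly6a and Itgb3 have points on both sides of 0.

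The genes whose levels followed an antigen most closely were sought among 4006 genes found in at least 20% of the cells of each stage, by the lower of the Spearman correlations within puberty (171 cells) and within the adult (152 cells). All cells were at the same depth. Epcam went with Clu (0.400 and 0.427), Krt8 (0.492 and 0.396) and Krt18 (0.516 and 0.384), the last being keratins of luminal cells. Cd14 went with Trf (0.402 and 0.571), Wfdc18 (0.390 and 0.471) and Csn3 (0.354 and 0.403), all of which were among the markers used for the luminal progenitor class. Ly6a went with AW112010 (0.411 and 0.487), Cd164 (0.401 and 0.436) and Tlcd4 (0.375 and 0.389). Itga6 reached at least 0.30 with Cks2, Nexn and Pxdc1, and Itgb1 with Gtpbp4. No gene reached that value for Cd24a, Itgb3 or Itga2.

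Of 14 other integrins and 9 other sorting antigens, 15 reached 20 CPM in a stage. By AUC, Icam1, an adhesion molecule also used in sorting, was called towards basal cells (0.736 and 0.758). Kit, a receptor tyrosine kinase, was called towards luminal progenitors (0.748 and 0.720). Among genes at 20 CPM or more, 1.24 and 0.384% were called in these directions. None of the 14 integrins, of which 8 reached 20 CPM, was called in either contrast. With 1.54 and 1.09% of genes called in either direction, so few genes would seldom hold a call. Icam1 was at 0.697 in cells 48 to 188, short of the limit, and at 0.829 in the others, and Kit at 0.703 and 0.788. Icam1 was found in 20 of 27 pubertal and 45 of 49 adult basal cells and in 27 of 102 and 34 of 60 luminal cells. Kit was found in 14 of 25 and 16 of 33 luminal progenitors and in 6 of 77 and 2 of 27 mature luminal cells. Of progenitors with Cd14, 7 of 11 in puberty and 12 of 25 in the adult also had Kit, beside 50.0% of progenitors without Cd14 at both stages. Prom1, whose product is sorted for in mature luminal cells, was found in 28 of 77 and 12 of 27 of them, and its AUC for luminal progenitor against mature luminal cells was 0.395 and 0.370. In cells 48 to 188 it was 0.607 and in the other adult cells 0.156, on opposite sides, and a single cell held 60.6% of the adult Prom1 reads. Itgb4 was found in 5 of 27 and 7 of 49 basal cells. Between the stages Cd200 was higher in the adult (log2 ratio -1.15) and Itga11 in puberty (5.14) among those at 20 CPM or more. This is 2 of 15, beside 34.1% of all genes at that level, and a single cell held 90.8% of the pubertal Itga11 reads.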

How the data were processed

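Polyadenylated RNA of single cells was amplified on the Fluidigm C1, made into libraries with Nextera XT and sequenced as read pairs, with no molecular identifiers. The authors aligned the read pairs to mm10 with Subread and deposited raw counts per gene and cell from featureCounts with a RefSeq annotation. Tool versions and the use of strand are not given in the sources used here. The deposited table that repeats all cells was not used.

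The 27179 identifiers were matched to RefSeq GRCm38.p6 (the mm10 assembly). Unmatched identifiers (1904, holding 1.84% of read pairs), 15 mitochondrial genes and 124 genes of ribosomal proteins were removed, leaving 25136. All 323 retained cells had distinct counts. Counts were thinned without replacement (seed 1) in NumPy 2.4.6. Shares carry Clopper-Pearson intervals, sums Poisson intervals and ratios exact conditional binomial intervals, and all cover counting error only, since amplified copies are not independent molecules. Stage ratios used a prior of 1 CPM. TMM factors came from edgeR 4.0.16 and median-of-ratios factors from DESeq2 1.42.0. The code was tested on simulated data. No doublet caller was run, since chambers were inspected by microscopy in the study.

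The antigens, gene lists, class markers and limits were chosen with earlier results of these data known. Among them was a difference of adult cells 48 to 188 in small RNA, which was not measured here. All 8 antigens and all genes of both lists of 14 integrins and 9 sorting antigens were to be named, with up to 3 genes per antigen by correlation.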

Additional observations from a re-analysis of the deposited data

Results flagged for a closer look

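Effects that pointed in opposite directions in 2 groups of cells, each by at least 0.1 from an AUC of 0.5 or by at least 0.5 in log2 ratio, were singled out, and none of these differences was tested. Smaller opposite differences, such as those of Itga6, Itgb1 and Itga2, are given above. For Epcam, luminal progenitors lay below mature luminal cells in puberty (AUC 0.387) and above them in the adult (AUC 0.690). For Ly6a, the log2 ratio of puberty over adult was 1.14 against cells 48 to 188 and -1.001 against the other adult cells. For Itgb3 the ratios were -0.61 and 0.55. A single adult cell held 73.8% of the Itgb3 reads of cells 48 to 188, and without the highest cell on each side both ratios were positive, at 0.72 and 1.97. The Ly6a ratios without the highest cells were 1.48 and -0.51, and the share of mature luminal cells also differed between these sets. For Prom1, luminal progenitors lay above mature luminal cells among cells 48 to 188 (AUC 0.607) and below them among the other adult cells (AUC 0.156).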

How the results depend on the processing

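No paired analysis was possible because the numbers in the titles only name cells and no test was made. The antigen 2-fold different between the stages was Cd14 alone (1 of 8) under 10 of the 13 alternatives. It was 2 of 8 with 200000 read pairs and 2500 genes (Itga2 and Cd14), with adult cells 48 to 188 only (Cd14 and Ly6a) and with the other adult cells only (Itga2 and Ly6a). The Cd14 log2 ratio ranged from -2.38 to -0.17. For basal against luminal the count of 2 became 1 with seed 2 and with adult cells 48 to 188 (Ly6a left) and with classes from marker shares (Epcam left), and 0 with a class lead of 0, with k-means and with scores standardised within stages. The Epcam AUC stayed between 0.167 and 0.282 in puberty and between 0.121 and 0.357 in the adult, and that of Ly6a between 0.1998 and 0.374 and between 0.207 and 0.290. For luminal progenitor against mature luminal the count of 1 became 2 with unthinned counts, seed 2, the lower depth of 50000, all genes kept, a class lead of 1, scores within stages and fibroblast-marker cells classed (Cd14 and Ly6a), and with 200000 read pairs and the other adult cells (Cd24a and Ly6a), and 0 with k-means. The Ly6a AUC stayed between 0.114 and 0.218 in puberty and between 0.205 and 0.305 in the adult, and that of Cd14 between 0.664 and 0.793 and between 0.766 and 0.900. Of the 6 gates, 3 reached 70%. The count was 0 with a depth of 50000, class leads of 0 or 1, marker shares, k-means, scores within stages and, added after seeing the data, Ly6d (a relative of Ly6a) left out of the markers, and 1 with the other adult cells. Of the other 23 genes 2 were called, and 1 with adult cells 48 to 188, also added later. Ly6a, at 0.13 against all adult cells and not called there, was called in opposite directions against the adult sets (log2 ratio 1.14 and -1.001), and no call made in the main analysis turned. The cause of these shifts was not tested. With 5 progenitor cells among the other adult cells, the values there are the least precise.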
